A study of Mus musculus with 12 samples.

Results

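The 10 genes described here take up, carry, export, store or sense iron: Tfrc, Tfr2, Trf, Slc40a1, Slc11a2, Hamp, Hfe, Fth1, Ftl1 and Hfe2. They were chosen by name, as the matrix rows with these symbols, and all 10 were present among the 31053 gene rows at the embryonic stage E16.5 and among the 22597 gene rows at postnatal day 3 (P3). The P3 files list Hfe2 under its current symbol, Hjv. The data are droplet single-cell RNA-seq counts from whole mouse liver, dissociated with enzymes and freed of dead cells, from Jag1+/+, Jag1Ndr/+ and Jag1Ndr/Ndr littermates of Jag1Ndr/+ crosses at the 2 stages. Jag1Ndr is a missense allele of the Notch ligand Jag1 that is carried in every cell from conception, and Jag1Ndr/Ndr pups at P3 were recognised by their jaundice before genotyping. A missense allele is still transcribed, so Jag1 counts do not check the genotype labels, and the strain background is not given in the sources used here.

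The 12 samples held 9 distinct libraries. At E16.5 one matrix was deposited both as Jag1+/+ replicate 2 and as Jag1Ndr/+ replicate 2, so it was counted once, as a shared library without the homozygous label, beside Jag1+/+ replicate 1, Jag1Ndr/+ replicate 1 and Jag1Ndr/Ndr replicates 1 and 2. At P3 several matrices held barcodes of 2 libraries. Library A (from the Jag1+/+ replicate 1 matrix) and library B (from the Jag1+/+ replicate 2 matrix) recur under other genotype labels, so their genotype is unclear and they entered only the comparison of stages. Library C is the 15145 barcodes left in the matrix labelled Jag1Ndr/Ndr replicate 1 once those of library A were taken out, and library D is Jag1Ndr/+ replicate 1. Between 0% and 1.54% of barcodes were shared in the 36 pairs of these 9 libraries. Each library is 1 animal per the series' design.

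Cells import iron bound to transferrin (Trf), the plasma carrier made by hepatocytes, through the transferrin receptor Tfrc, and move it out of the endosome through the divalent metal transporter Slc11a2. Surplus iron is stored in ferritin, a shell of the subunits Fth1 and Ftl1, or leaves through ferroportin (Slc40a1), the only known cellular iron exporter. Hepcidin, the peptide encoded by Hamp and secreted by hepatocytes, binds ferroportin and causes its degradation. Hfe, the second transferrin receptor Tfr2 and hemojuvelin (Hfe2, a co-receptor for bone morphogenetic proteins) sense iron and raise Hamp transcription. The fetal liver is also the main site of red cell formation, which consumes most of the iron.

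Several members carry an iron-responsive element, a hairpin in the messenger RNA that iron regulatory proteins bind when iron is scarce, which blocks translation when the hairpin lies in the 5′ UTR and protects the transcript when it lies in the 3′ UTR. These windows are shown because they separate the storage and export genes from the uptake gene Tfrc. The search was for a bulged C, any 5 bases, the loop start CAGTG with any base but G after it, and 5 bases able to pair with the first 5, on the transcript strand of GRCm38. Each 30-base window is printed 5′ to 3′ with the bulged C and the loop in capitals.
Fth1 5′ UTR, chr19:9982732-9982761, plus strand: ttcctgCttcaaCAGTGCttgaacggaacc
Ftl1 5′ UTR, chr7:45459778-45459807, minus strand: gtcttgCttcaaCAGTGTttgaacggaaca
Slc40a1 5′ UTR, chr1:45925464-45925493, minus strand: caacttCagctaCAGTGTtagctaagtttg
Tfrc 3′ UTR, chr16:32631219-32631248, plus strand: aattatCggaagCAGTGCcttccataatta
Tfrc 3′ UTR, chr16:32631598-32631627, plus strand: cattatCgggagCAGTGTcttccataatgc
Tfrc 3′ UTR, chr16:32631663-32631692, plus strand: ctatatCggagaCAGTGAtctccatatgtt
Tfrc 3′ UTR, chr16:32631710-32631739, plus strand: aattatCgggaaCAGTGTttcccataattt
Of 21842 protein-coding genes searched, 23 (0.105%) had such a match in the 5′ UTR and 100 (0.458%) in the 3′ UTR. Among the members, 3 matched in the 5′ UTR and 1 in the 3′ UTR, Tfrc, with 4 sites. None of the other members or listed pathway genes matched, which says only that these letters are not in their annotated UTRs. An element with an unpaired base among the 5 pairs would be missed, so the search does not show that the other members, such as Slc11a2, lack one.

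The 250 bases upstream of the RefSeq start of Hamp are shown beside those of its neighbour Hamp2. Hamp had the widest range of the 10 genes between stages, and few UMIs were counted for Hamp2. Capitals mark 3 motifs, each searched on both strands. The first, GGCGCC, is the core of a BMP-responsive element. A STAT-type element was searched as TTCNNNGAA. The TATA-like box was searched as ATAAAA.
Hamp, GRCm38.p6 chr7:30944030-30944279, minus strand: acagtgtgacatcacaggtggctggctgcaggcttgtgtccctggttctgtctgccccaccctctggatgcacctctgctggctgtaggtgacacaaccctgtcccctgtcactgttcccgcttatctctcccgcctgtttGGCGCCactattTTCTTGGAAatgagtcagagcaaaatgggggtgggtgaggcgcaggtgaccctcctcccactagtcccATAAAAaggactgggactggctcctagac
Hamp2, GRCm38.p6 chr7:30924182-30924431, minus strand: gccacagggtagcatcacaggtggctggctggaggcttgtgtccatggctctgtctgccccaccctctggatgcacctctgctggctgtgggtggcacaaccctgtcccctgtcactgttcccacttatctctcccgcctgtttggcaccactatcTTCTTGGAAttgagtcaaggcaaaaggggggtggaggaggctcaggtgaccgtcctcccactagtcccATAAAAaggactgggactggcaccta
The windows were identical at 227 of 253 alignment columns (89.7%). Hamp held GGCGCC 109 bases upstream of the start, where Hamp2 differed by G4A, counted from 1 at the first base of GGCGCC with the Hamp base first. Of 32851 mouse promoters with a window of this length, 9.59% held GGCGCC, 7.02% held TTCNNNGAA and 5576 promoters held ATAAAA. Kept cells gave 2076 Hamp and 3 Hamp2 UMIs at E16.5 and 6042 Hamp and 14 Hamp2 UMIs at P3 (a UMI, unique molecular identifier, counts 1 captured transcript).

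Libraries held between 75745209 and 258642858 UMIs and 15024 to 29034 barcodes that passed the filter of at least 1000 UMIs and at most 15% mitochondrial UMIs. Clusters were named from marker genes of liver and blood cell types, giving 10 named classes at E16.5 and 12 at P3, and the members played no part in choosing the genes used for clustering. The hepatocyte class was small, with 88 to 220 cells per E16.5 library and 50 to 276 per P3 library. Its median depth was 23321 UMIs per cell at E16.5 and 2649 at P3. Clusters outside the erythroid class with over 30% of their UMIs on globin genes were set apart, a threshold chosen after seeing the data. At E16.5 they held 584 to 1156 cells per library with hepatocyte markers and 676 to 914 with macrophage markers, and at P3 61 to 249 and 229 to 520. Stage also coincides with the use of TrypLE at E16.5 only, with the software version named in the matrix headers and with the gene list, so these cannot be told apart from stage. In sums over whole libraries, fewer cells of a type and less RNA per cell cannot be told apart.

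UMIs on globin genes were found in every class, and their source (free RNA, doublets, or attached or engulfed red cells) was not tested. At E16.5 the median share of UMIs on globin genes was 6.14% in hepatocytes, 11.2% in macrophages, 15.5% in neutrophils and 16.4% in endothelial cells. At P3 it was 1.16%, 0.765%, 1.05% and 7.53%. Levels of Tfrc, Tfr2 and Slc11a2 outside erythroid cells are therefore set beside erythroid marker RNA, and those of Hamp, Trf and Tfr2 outside hepatocytes beside hepatocyte marker RNA.

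The members fell into hepatocyte, macrophage and erythroid patterns. Levels are given as CPM, the UMI count scaled to the total of the class in a library, as mean ± SD over libraries, with 5 libraries at E16.5 and 4 at P3. Transferrin RNA was highest in hepatocytes, at 13660 ± 594 CPM at E16.5 and 10984 ± 1473 at P3, and next in macrophages, at 605 ± 94.7 and 957 ± 319. The ranges of these 2 classes did not overlap with each other or with the next class at either stage. The macrophage Trf RNA was not in the ratio of hepatocyte RNA: per 1000 hepatocyte-marker UMIs in the same libraries there were 598 Trf UMIs (range 396 to 709.7) in E16.5 macrophages and 98.2 (81.5 to 109) in hepatocytes. In E16.5 B cells, neutrophils and erythroid cells this ratio was 115, 114 and 112. Hemojuvelin (Hfe2, chr3:96525172-96529210, plus strand) was read at 27.0 ± 7.57 CPM in E16.5 hepatocytes and 24.2 ± 6.16 at P3. No other named class exceeded a mean of 0.702 CPM at E16.5 or 1.91 CPM at P3 for Hfe2.

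Ferroportin RNA (Slc40a1, chr1:45908068-45926523, minus strand) was highest in macrophages, the cells that clear old red cells and recycle their iron. The 5 E16.5 libraries gave 2248, 2473, 1822, 2114 and 2384 CPM for Slc40a1 in macrophages, and the P3 libraries A to D gave 2486, 2850, 2032 and 2856 CPM. Endothelial cells followed at 189.7 ± 39.6 and 268 ± 80.8 CPM, and hepatocytes at 170.3 ± 31.0 and 87.9 ± 18.5. Endothelial cells and hepatocytes overlapped at E16.5 and were apart at P3. Per 1000 macrophage-marker UMIs, E16.5 endothelial cells had a median of 236 Slc40a1 UMIs (149 to 266), beside 169.8 (148 to 221) in macrophages. In P3 libraries the endothelial median was 110.3 (75.1 to 170.1), beside 86.5 (62.0 to 95.8). These classes overlapped in this ratio, and hepatocytes were higher, with medians of 1086 and 627. The part of macrophage RNA in endothelial Slc40a1 was not tested. Neutrophils held 79.7 ± 16.9 and 65.8 ± 3.55 CPM of Slc40a1, with 1504 Slc40a1 UMIs per 1000 macrophage-marker UMIs at E16.5 against 169.8 in macrophages themselves.

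Hfe, an HLA-like protein that binds Tfrc, was also a macrophage gene, at 181 ± 15.7 CPM at E16.5 and 243 ± 29.4 at P3. Hepatocytes held 15.9 ± 3.33 and 18.3 ± 3.17 CPM of Hfe. At P3 dendritic cells reached 192 CPM for Hfe and overlapped with macrophages, and endothelial cells came next at 58.2 ± 19.8. With globin UMIs counted in the total, both ferritin subunits were highest in macrophages. Fth1 (chr19:9980598-9985098, plus strand) was at 7968 ± 963 and 7764 ± 1050 CPM and Ftl1 (chr7:45457944-45459884, minus strand) at 7822 ± 949.7 and 11780 ± 2122. The second class for Fth1 was erythroid, at 4141 ± 337 and 5409 ± 1820 CPM, and it overlapped with macrophages at P3. Over UMIs other than globin, Fth1 means were 8405 to 14402 CPM in the E16.5 erythroid clusters described below and 8209 to 15531 at P3. Macrophages had median globin shares of only 11.2% and 0.765%. The order of these 2 classes for Fth1 is therefore given for totals with globin only. The near copy Ftl1-ps1 was counted separately, with 16129 UMIs against 1551650 for Ftl1 at E16.5 and 7489 against 932972 at P3, so reads that could not be placed between them leave the Ftl1 level uncertain by an amount not tested here.

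With globin UMIs counted in the total, Tfrc (chr16:32608920-32632794, plus strand) separated erythroid cells from the other named classes at P3 only. At E16.5 globin took 49.3% to 78.3% of erythroid UMIs and 9.22% to 17.1% of macrophage UMIs, which lowers erythroid CPM more. Over UMIs other than globin, the means of the E16.5 erythroid clusters were 990.4 to 3435 CPM. The E16.5 overlap is therefore given for totals with globin only. At P3 the erythroid mean was 413 ± 179 CPM and the next class, B cells, was at 114 ± 44.7 CPM with no overlap. At E16.5 erythroid cells held 658 ± 369 CPM and macrophages 635 ± 217, and each of the 10 named classes overlapped with the next in order, down to 216 ± 44.2 CPM in granulocyte progenitors. Per 1000 UMIs of erythroid markers other than globins, Tfrc gave 129.7 UMIs (105 to 208) in E16.5 erythroid cells, 293 (229 to 339) in macrophages and 289 (267 to 321) in hepatocytes. The same ratio was 155 in neutrophils and 188 in endothelial cells. How much of the E16.5 Tfrc outside erythroid cells came from erythroid RNA was not tested. Slc11a2 (chr15:100387898-100425072, minus strand) had low class means with globin counted, at most 37.4 ± 7.44 CPM in E16.5 macrophages and 27.9 ± 10.5 CPM in P3 erythroid cells. Single erythroid clusters were higher on the same scale. They reached 78.0 ± 7.93 CPM at E16.5, in the cluster with 35.2% globin, and 53.7 ± 7.04 CPM at P3, in the cluster with 38.6%. Outside the named classes, 1 unnamed cluster per stage was also above these class means for Slc11a2. Its mean was 63.9 CPM at E16.5 (47.6 to 83.7 over libraries) and 46.5 at P3 (42.4 to 52.1). These unnamed clusters held 976 ± 363 and 216 ± 70.5 CPM of Tfrc, the latter within the range of P3 erythroid cells.

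**Figure D1:**
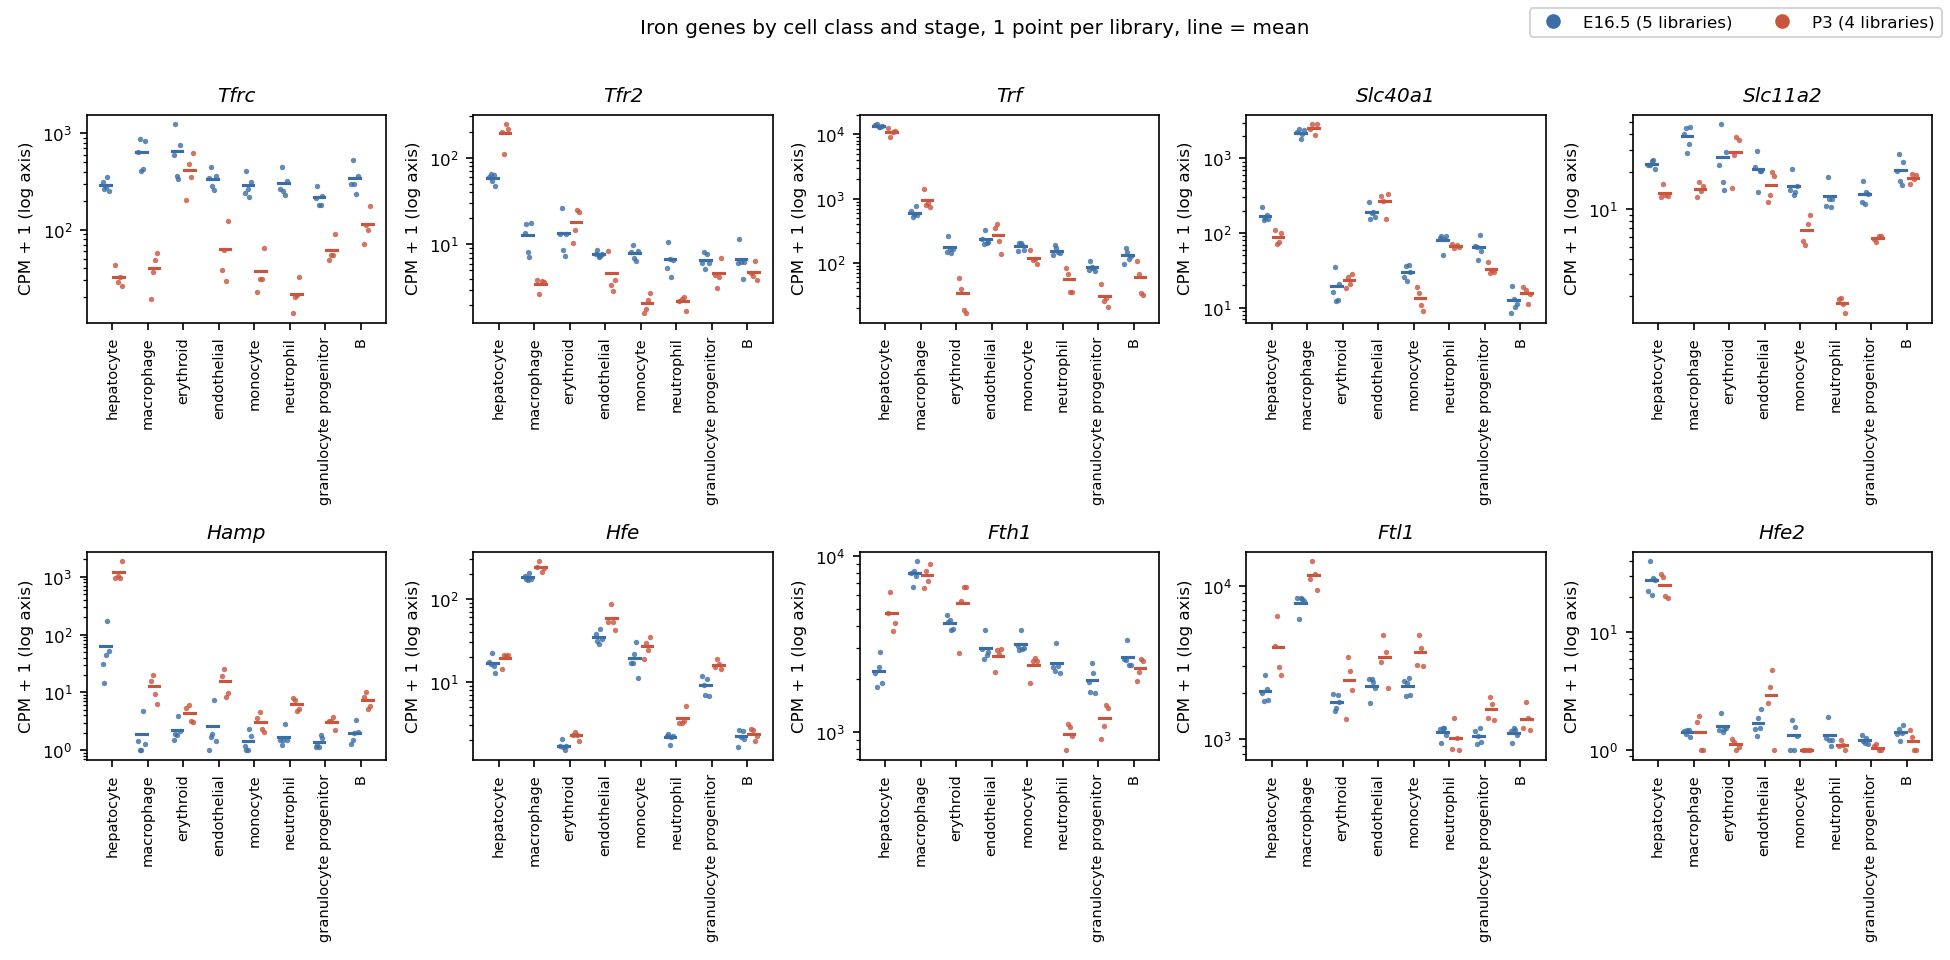
Level of each of the 10 iron genes (CPM + 1, log axis) in the 8 cell classes compared between stages, with 1 point per library and a line at the mean of 5 E16.5 or 4 P3 libraries. Totals include globin, which took 49.3% to 78.3% of erythroid UMIs at E16.5 and 45.9% to 69.6% at P3. On this scale Trf, Hamp, Tfr2 and Hfe2 peak in hepatocytes and Slc40a1, Hfe, Fth1 and Ftl1 in macrophages. Tfrc is spread over all classes at E16.5 and highest in erythroid cells at P3.

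Hamp (chr7:30942368-30944032, minus strand) was detected in hepatocytes at both stages, at 61.8 ± 62.2 CPM at E16.5 and 1189 ± 446 at P3. No other named class exceeded a mean of 1.81 CPM at E16.5 or 19.7 at P3. At P3 these low values kept the ratio to hepatocyte RNA: hepatocytes held 9.16 Hamp UMIs per 1000 hepatocyte-marker UMIs (5.69 to 11.1 over libraries), B cells 10.4, erythroid cells 10.1, neutrophils 11.7 and macrophages 7.89. The 11 other named classes at P3 had median ratios between 7.23 and 12.0, with a wider spread over libraries in sparse classes, such as 3.31 to 41.0 in T and NK cells and 6.51 to 33.1 in mesenchymal cells. Tfr2 (chr5:137569840-137587481, plus strand) did not keep that ratio. Hepatocytes held 1.39 Tfr2 UMIs per 1000 hepatocyte-marker UMIs at P3 (1.02 to 1.80), erythroid cells 60.3 (20.9 to 113) and megakaryocytes 37.7 (26.5 to 51.5). The median was above the hepatocyte one in the other named classes too, from 2.01 in macrophages to 15.8 in granulocyte progenitors (13.7 to 38.4).

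**Figure D2:**
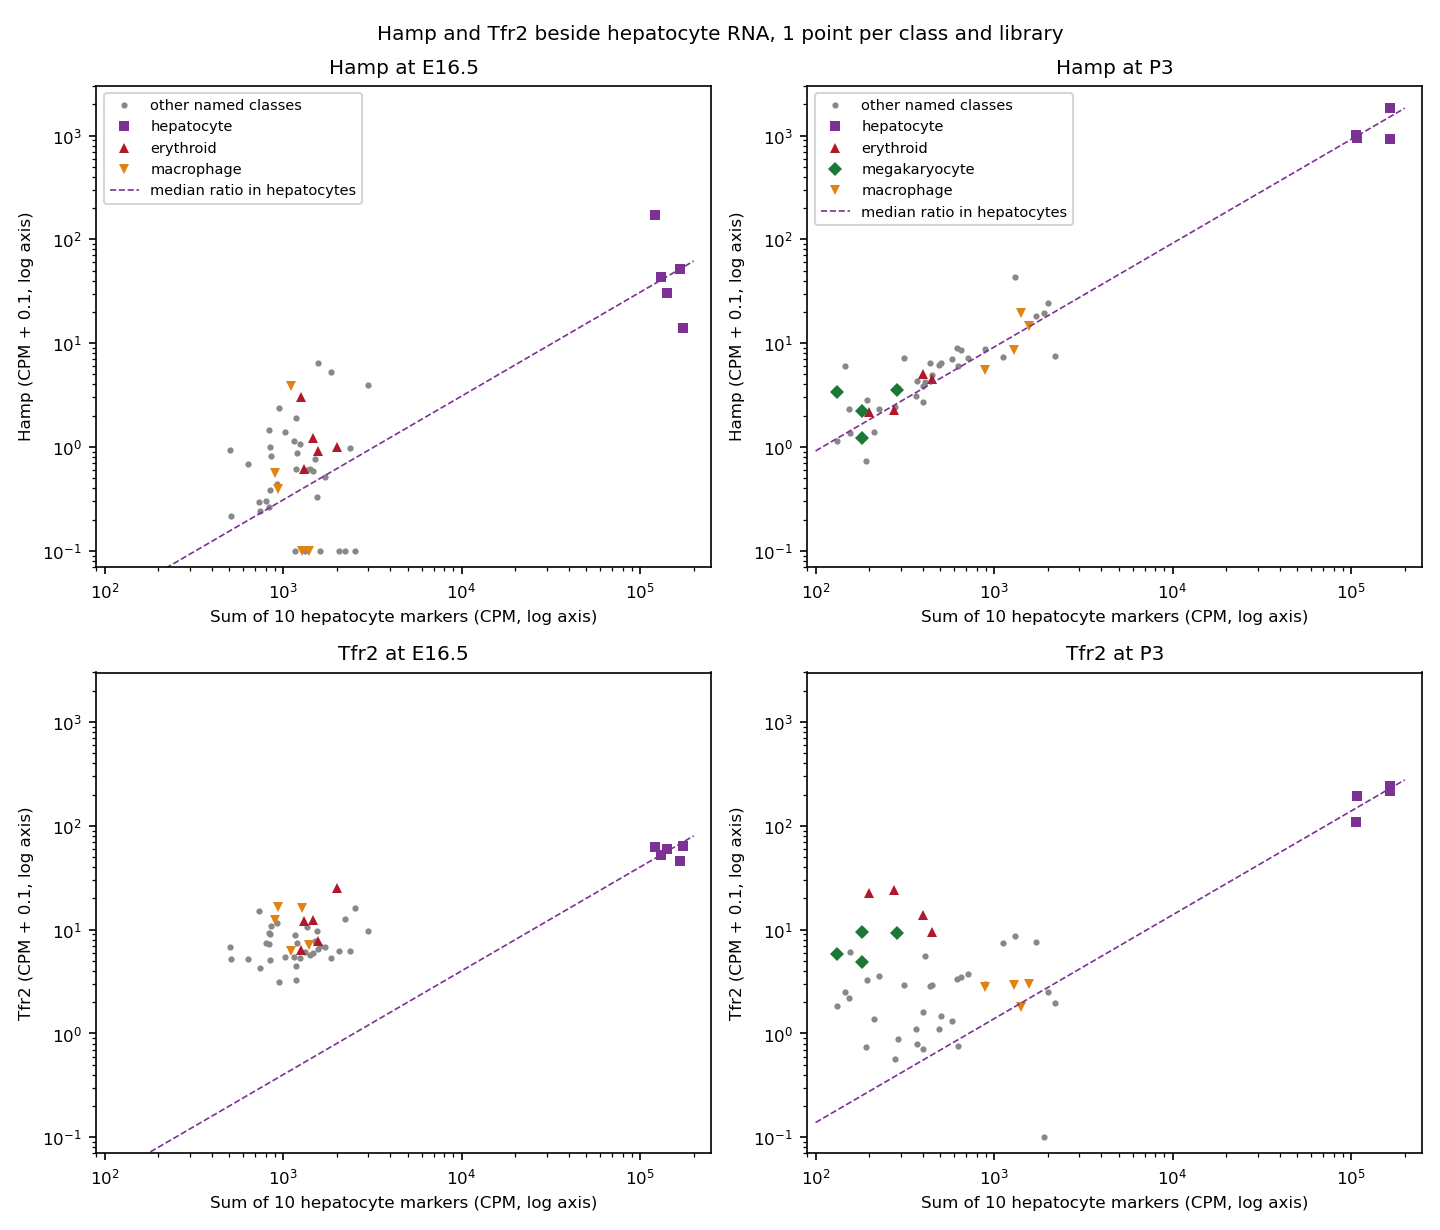
Hamp and Tfr2 (CPM + 0.1, log axis) against the summed level of 10 hepatocyte markers (CPM, log axis), with 1 point per named class and library, and a dashed line at the median ratio in hepatocytes. At P3 the median Hamp ratio of each other class lies between 7.23 and 12.0 per 1000, near the hepatocyte line at 9.16, with single points of sparse classes off it, while the Tfr2 medians of all other named classes lie above the hepatocyte line, farthest in erythroid cells and megakaryocytes.

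The first question was how the genes differed between the fetal and the newborn liver. Over 8 cell classes with at least 20 cells in every library, 73 member and class pairs passed the low-count filter, of 80 possible. Of these, 13 were higher at P3 (17.8%) and 33 lower (45.2%) at a Benjamini-Hochberg adjusted p under 0.05 in edgeR's quasi-likelihood test. Over all 83565 gene and class pairs tested, 22.8% were higher and 23.1% lower. The median log2 fold change over the 73 member pairs was -0.33 and over all pairs 0.002. Among pairs with a mean of at least 20 CPM, the stages did not overlap in 25 of 47 member pairs (53.2%) and in 40.8% of all pairs. Summed over whole libraries, 2 members were higher (Hamp and Hfe, background 27.0% of all genes) and 4 lower (Tfrc, Trf, Slc11a2 and Hfe2, background 25.9%) at P3, where 52.9% of all genes passed in either direction, so a single call is a common event in this comparison.

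**Figure D3:**
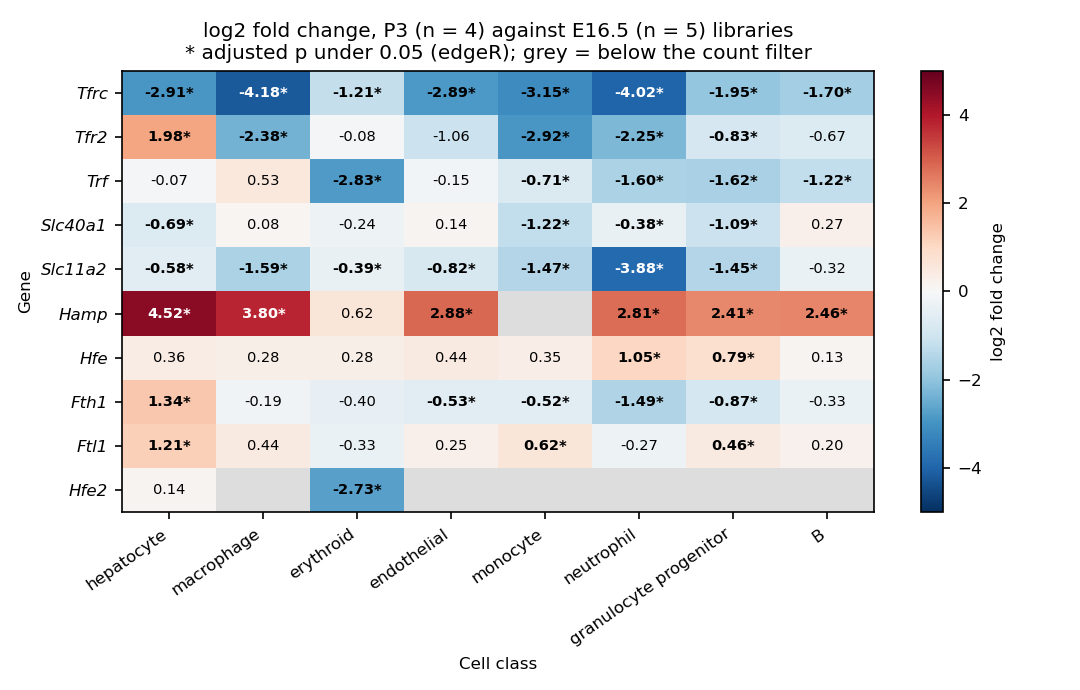
Log2 fold change of the 10 iron genes at P3 (n = 4 libraries) against E16.5 (n = 5) in 8 cell classes, with asterisks at an edgeR adjusted p under 0.05 and grey cells below the count filter. Tfrc is lower at P3 in all 8 classes, from -1.21 in erythroid cells to -4.18 in macrophages, and Hamp is highest in hepatocytes at 4.52.

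By class, 7 of the 10 members passed in hepatocytes (background 42.7% of genes), 4 of 9 in macrophages (47.0%), 4 of 10 in erythroid cells (47.8%) and 4 of 9 in endothelial cells (33.4%). In the other blood classes 3 of 9 passed in B cells (48.2%), 8 of 9 in neutrophils (49.2%), 9 of 9 in granulocyte progenitors (47.1%) and 7 of 8 in monocytes (50.5%).

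Hamp rose in hepatocytes. Its level was 30.2 CPM in Jag1+/+ replicate 1, 13.8 in the shared library, 43.0 in Jag1Ndr/+ replicate 1, 170.1 in Jag1Ndr/Ndr replicate 1 and 51.6 in Jag1Ndr/Ndr replicate 2 at E16.5. At P3 it was 944 CPM in library A, 1021 in B, 936 in C and 1855 in D. Every P3 library was above every E16.5 library, by 23.0-fold in the fit (log2 4.52, SE 0.558, edgeR adjusted p = 3.0e-05). DESeq2 gave no adjusted p for this gene and class. Without Jag1Ndr/Ndr replicate 1, the highest E16.5 library, the log2 fold change was 5.32.

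More hepatocytes carried Hamp RNA at P3. At E16.5 at least 1 Hamp UMI was found in 15 of 88 hepatocytes of Jag1+/+ replicate 1, 21 of 220 of the shared library, 21 of 130 of Jag1Ndr/+ replicate 1, 50 of 103 of Jag1Ndr/Ndr replicate 1 and 23 of 139 of Jag1Ndr/Ndr replicate 2. At P3 the shares were 58.7%, 62.3%, 60.0% and 62.2% in libraries A to D. Over all libraries of a stage the share was 19.1% at E16.5 (exact 95% interval 16.2 to 22.3) and 60.4% at P3 (56.2 to 64.4), and after thinning every cell to 1000 UMIs 4.11% and 42.2%. In neutrophils, which should lack the gene, 0.799% and 2.87% of cells had a Hamp UMI (0.0772% and 0.626% thinned) at median depths of 10307 and 5478 UMIs. Intervals cover counting error only. The highest single cell had 66 Hamp UMIs at E16.5 and 132 at P3.

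**Figure D4:**
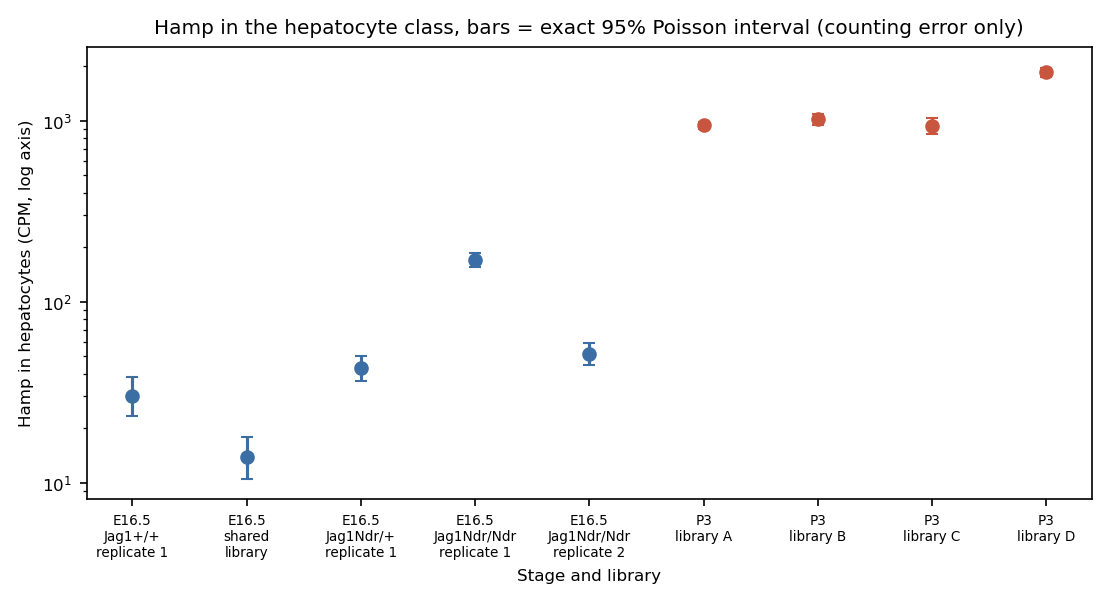
Hamp in the hepatocyte class of each of the 9 libraries (CPM, log axis), with bars for the exact 95% Poisson interval of the count, which covers counting error only. The 4 P3 libraries lie between 936 and 1855 CPM and the 5 E16.5 libraries between 13.8 and 170.1 CPM.

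Outside hepatocytes Hamp was called higher at P3 in macrophages (0.903 ± 1.61 to 12.0 ± 6.28 CPM), endothelial cells, neutrophils, granulocyte progenitors and B cells, with log2 fold changes from 2.41 in granulocyte progenitors to 3.80 in macrophages. With globin-rich clusters kept in their class these were 1.82 and 2.19 and still passed. Per 1000 hepatocyte-marker UMIs, E16.5 Hamp gave median ratios of 0.309 in hepatocytes (0.0796 to 1.40 over libraries), 0.318 in macrophages, 0.369 in endothelial cells, 0.358 in neutrophils, 0.256 in granulocyte progenitors and 0.785 in B cells, and the P3 ratios are given above. The part of hepatocyte RNA in these calls was not tested. In erythroid cells the log2 fold change was 0.62 (edgeR adjusted p = 0.484), and monocytes fell below the count filter.

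Of the 3 sensors of the hepcidin pathway, Tfr2, Hfe and Hfe2, Tfr2 was called in hepatocytes, and the difference between the genes was not tested. Tfr2 rose in hepatocytes from 59.5, 64.1, 52.8, 62.6 and 45.9 CPM in the E16.5 libraries to 195, 109, 243 and 216 CPM in libraries A to D. The groups did not overlap, and the log2 fold change was 1.98 (SE 0.204, edgeR adjusted p = 7.0e-06). In the same comparison Tfr2 fell in macrophages, monocytes, neutrophils and granulocyte progenitors, by 2.38, 2.92, 2.25 and 0.83 on the log2 scale, from E16.5 means of 5.68 to 11.7 CPM to P3 means of 1.10 to 3.68 CPM. Per 1000 UMIs of erythroid markers other than globins, Tfr2 in these classes gave median ratios of 5.64, 4.64, 3.15 and 5.79 at E16.5, against 2.67 in erythroid cells, and 23.5, 3.61, 19.3 and 14.6 at P3, against 3.88. Erythroid RNA fell with Tfr2 there, and its part in the fall was not tested. Tfr2 also fell in B cells once globin-rich clusters were kept (log2 -1.09, edgeR adjusted p = 0.0103). In erythroid cells its log2 fold change was -0.08 (95% interval -0.41 to 0.26). Hfe2 in hepatocytes was 21.5, 39.1, 19.8, 27.8 and 27.0 CPM at E16.5 and 30.3, 28.7, 19.3 and 18.6 at P3. These values overlapped, and the log2 fold change of Hfe2 was 0.14 (95% interval -0.35 to 0.64). The erythroid Hfe2 call, lower by 2.73 on the log2 scale, concerned means of 0.604 and 0.118 CPM.

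Hfe was 189, 171, 168, 205 and 174 CPM in E16.5 macrophages and 240, 283, 213 and 235 in P3 macrophages. The groups did not overlap, yet the log2 fold change of 0.28 did not pass (SE 0.124, edgeR adjusted p = 0.0796). It passed with globin-rich clusters kept in their class (log2 0.55, edgeR adjusted p = 0.0041). In hepatocytes the Hfe log2 fold change was 0.36 (95% interval -0.10 to 0.83). Hfe rose in granulocyte progenitors (log2 0.79) and neutrophils (log2 1.05), from means of 8.16 and 1.15 CPM.

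Transferrin RNA in hepatocytes was 14128, 14373, 12947, 13246 and 13604 CPM at E16.5 and 12593, 9052, 10885 and 11404 CPM at P3. The P3 values were all lower as CPM, but the normalised log2 fold change of Trf was -0.07 (SE 0.140, edgeR adjusted p = 0.708), near 0 with either sign across settings. Trf in macrophages was 637, 509, 566, 753 and 558 CPM at E16.5 and 1430, 798, 849.5 and 749 at P3, a log2 fold change of 0.53 that missed the threshold in edgeR (adjusted p = 0.0612) and passed in DESeq2 (log2 0.54, adjusted p = 0.0372). Trf fell in erythroid cells by 2.83 on the log2 scale, from 175 ± 48.6 to 32.3 ± 19.9 CPM, and in neutrophils, granulocyte progenitors, B cells and monocytes. In erythroid cells the ratio of Trf to hepatocyte-marker UMIs was 112 per 1000 at E16.5 and 87.3 at P3, close to hepatocytes themselves at 98.2 and 76.8, and the hepatocyte-marker level there had a median of 1468 CPM at E16.5 and 338 at P3. The marker level also fell in neutrophils (1417 to 452 CPM), granulocyte progenitors (639 to 175), B cells (1156 to 535) and monocytes (1171 to 250.1). The Trf ratio there was 114 and 112 per 1000 in neutrophils, 132 and 149.6 in granulocyte progenitors, 115 and 93.3 in B cells and 176 and 462 in monocytes. The part of hepatocyte RNA in these falls of Trf was not tested.

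The receptor for transferrin was called lower at P3 in every class tested. Tfrc was 314, 263, 274, 349 and 251 CPM in E16.5 hepatocytes and 41.7, 27.5, 31.3 and 25.3 in P3 hepatocytes, lower by 2.91 on the log2 scale (SE 0.188, edgeR adjusted p = 1.1e-07). In macrophages it was 643, 873, 410.3, 422 and 826 CPM at E16.5 and 18.3, 35.7, 47.9 and 56.1 at P3, lower by 4.18 (SE 0.311, edgeR adjusted p = 7.5e-07). The stages did not overlap in either class. Tfrc was lower by 1.84 in hepatocytes and 3.14 in macrophages with globin-rich clusters kept in their class, and both still passed. In erythroid cells, the main consumers of iron, Tfrc was 588, 1240, 364, 336 and 762 CPM at E16.5 and 202, 474, 352 and 623 at P3. These overlapped, although the normalised log2 fold change of -1.21 passed (SE 0.207, edgeR adjusted p = 5.9e-04). It was -1.83 at Leiden resolution 0.5, and the difference on log2(CPM + 1) was -0.62. The erythroid class also held different clusters at the 2 stages. At P3, 5149 and 4482 of its 27973 cells lay in clusters at 87.6% and 88.8% globin, with 23.3 and 12.2 CPM of Tfrc. No E16.5 erythroid cluster exceeded 83.7% globin. The part of this shift in the erythroid fall was not tested, and Tfrc is given by cluster below. The other 5 classes fell by between 1.70 (B cells) and 4.02 (neutrophils) on the log2 scale. Globin RNA, the sign of erythroid RNA in other classes, was also lower at P3 in each of them, for example from a median of 11.2% to 0.765% of UMIs in macrophages and from 15.5% to 1.05% in neutrophils, and its part in the fall of Tfrc outside erythroid cells was not tested.

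Slc11a2 fell in 7 of the 8 classes. The exception was B cells (log2 -0.32, edgeR adjusted p = 0.0912), which passed with globin-rich clusters kept (log2 -0.65, edgeR adjusted p = 0.00402). In macrophages it was 39.0, 44.1, 27.3, 32.4 and 44.3 CPM at E16.5 and 11.5, 15.5, 12.9 and 14.2 at P3, with no overlap (log2 -1.59, SE 0.153, edgeR adjusted p = 6.1e-06). Neutrophils went from 11.6 ± 3.11 to 0.758 ± 0.210 CPM, lower by 3.88 on the log2 scale. In hepatocytes the Slc11a2 means were 22.0 ± 1.60 and 12.5 ± 1.64 CPM, with no overlap (log2 -0.58, edgeR adjusted p = 0.0245, DESeq2 adjusted p = 0.0653). The erythroid call (log2 -0.39, edgeR adjusted p = 0.0481) was lost with globin genes removed (edgeR adjusted p = 0.0503), and the endothelial call (log2 -0.82) in DESeq2 (adjusted p = 0.0561). On log2(CPM + 1), without normalisation between libraries, the erythroid difference of Slc11a2 was 0.21, the opposite sign. Per 1000 erythroid-marker UMIs Slc11a2 gave median ratios of 17.5 in macrophages, 6.12 in neutrophils and 4.89 in erythroid cells at E16.5, and 147, 11.9 and 6.56 at P3. The part of erythroid RNA in the fall of Slc11a2 outside erythroid cells was not tested.

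The exporter Slc40a1 differed between stages in hepatocytes but not detectably in macrophages. Hepatocytes held 223, 147, 156, 173 and 153 CPM of Slc40a1 at E16.5 and 108, 69.9, 74.6 and 99.5 at P3, without overlap, lower by 0.69 on the log2 scale (SE 0.172, edgeR adjusted p = 0.00496). The macrophage log2 fold change was 0.08 (95% interval -0.18 to 0.33). With globin-rich clusters kept in the macrophage class it was 0.46 (edgeR adjusted p = 0.0255). Slc40a1 also fell in monocytes, granulocyte progenitors and neutrophils, by 1.22, 1.09 and 0.38 on the log2 scale, the last lost under upper-quartile normalisation (edgeR adjusted p = 0.0616).

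Both ferritin subunits rose in hepatocytes. Fth1 was 2162, 1793, 2348, 2855 and 1901 CPM at E16.5 and 4744, 6195, 3743 and 4131 at P3, without overlap (log2 1.34, SE 0.183, edgeR adjusted p = 6.7e-05). With globin-rich clusters kept in the hepatocyte class the Fth1 log2 fold change was 0.50 and the call was lost (edgeR adjusted p = 0.0644). Ftl1 was 1994, 1782, 2629, 2120 and 1798 CPM at E16.5 and 4088, 6409, 2961 and 2621 at P3, where library D lay just below the highest E16.5 library (log2 1.21, SE 0.236, edgeR adjusted p = 9.4e-04). In macrophages the log2 fold change was -0.19 for Fth1 (edgeR adjusted p = 0.314) and 0.44 for Ftl1 (edgeR adjusted p = 0.0527). The Ftl1 difference passed in 6 of 20 alternatives, among them DESeq2 (adjusted p = 0.0222), upper-quartile normalisation (edgeR adjusted p = 0.0476) and globin genes removed (edgeR adjusted p = 0.0445), over a range of adjusted p from 0.0219 to 0.284. Macrophage Ftl1 was 8320, 6151, 8408, 8277 and 7952 CPM at E16.5 and 11111, 14542, 12008 and 9459 CPM at P3, with no overlap.

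In myeloid cells the ferritin subunits differed in their calls. Fth1 fell in neutrophils (log2 -1.49), granulocyte progenitors (log2 -0.87), monocytes (log2 -0.52) and endothelial cells (log2 -0.53). The median globin share also fell there, in the same order from 15.5% to 1.05%, 6.62% to 3.31%, 12.4% to 4.36% and 16.4% to 7.53%. The part of erythroid RNA in these falls of Fth1 was not tested. Ftl1 rose in monocytes (log2 0.62) and granulocyte progenitors (log2 0.46), the latter call lost with globin-rich clusters kept (log2 0.23, edgeR adjusted p = 0.27). In neutrophils its log2 fold change of -0.27 did not pass (edgeR adjusted p = 0.286). The difference between the subunits was not tested. Fth1 also fell in B cells once globin-rich clusters were kept (log2 -0.63, edgeR adjusted p = 0.0208). In erythroid cells the CPM means of Fth1 (4141 and 5409) and Ftl1 (1761 and 2434) were higher at P3 while the normalised log2 fold changes were -0.40 and -0.33, neither past the threshold. Globin took 49.3% to 78.3% of erythroid UMIs at E16.5 and 45.9% to 69.6% at P3.

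Erythroid cells were therefore also read as CPM of UMIs other than globin, cluster by cluster, in the order of their globin share, which increases as red cells mature. At E16.5 Tfrc was highest, at 3435 ± 311 CPM, in the cluster with the lowest globin share (35.2%) and lowest, at 990.4 ± 123 CPM, at 75.4%. Between them the order was not steady, with 1378 ± 424 CPM of Tfrc at 46.3% globin, 2550 ± 59.8 at 58.6% and 1906 ± 107 at 61.0%. The clusters at 58.6% and 75.4% globin rest on 3 and 4 libraries, with 53.5% and 62.6% of their cells from 1 library, and the other E16.5 clusters given here on 5. At P3 Tfrc was 485 ± 159 CPM in the cluster with 6.84% globin and peaked at 1843 ± 411 CPM at 55.6%. It was 1272 ± 342 CPM at 77.1% and 178 ± 72.9 and 109 ± 49.6 CPM in the clusters at 87.6% and 88.8%. Tfr2 was highest in the cluster of lowest globin share at each stage, 61.0 ± 4.96 CPM at E16.5 and 51.1 ± 9.96 at P3. Slc11a2 was 124 ± 15.3 CPM in the first E16.5 cluster, and at P3 peaked at 88.0 ± 8.81 CPM at 38.6% globin before 9.03 ± 3.49 CPM at 87.6%. Fth1 at E16.5 was 8405 ± 1126 CPM at 35.2% globin, 8748 ± 1692 at 46.3%, 11748 ± 2737 at 58.6%, 10550 ± 1374 at 61.0% and 14402 ± 2597 at 75.4%. At P3 it was 8209 ± 1436 CPM at 6.84% globin, 14660 ± 1907 at 38.6% and 15531 ± 1735 at 55.6%, and then 11084 ± 2206, 12276 ± 2726 and 12117 ± 3485 at 77.1%, 87.6% and 88.8%. The other subunit, Ftl1, increased at every step at P3, from 2677 ± 598 CPM at 6.84% globin to 20303 ± 9819 at 88.8%. At E16.5 it was 2724 ± 387 CPM at 35.2% and 6851 ± 1608 at 75.4%. The E16.5 clusters at 74.8% and 83.7% globin took 94.5% and 98.5% of their cells from 1 library and are given in the plot only. The clusters were formed from the same cells, so these orders are a description with no test. An unnamed E16.5 cluster led by C1qtnf12 and C1qbp held 57.2 ± 15.1 CPM of Tfr2 and 1107 ± 415 CPM of Tfrc on the same scale. An unnamed P3 cluster led by Ins2 and Ins1, with Car1 and C1qtnf12 also among its leading genes, held 66.6 ± 12.4 and 216 ± 70.9 CPM.

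**Figure D5:**
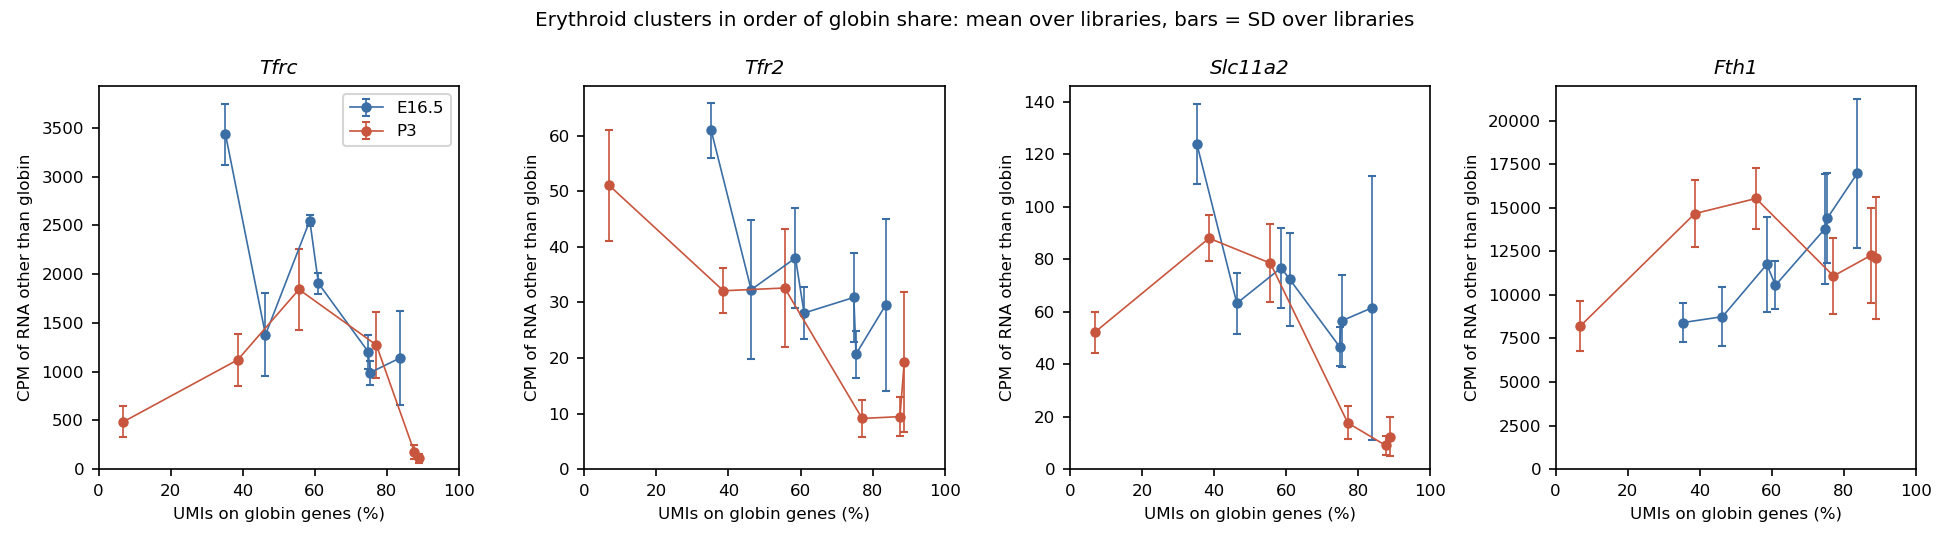
Tfrc, Tfr2, Slc11a2 and Fth1 in erythroid clusters (CPM of RNA other than globin) against the cluster's share of UMIs on globin genes (%), as mean over libraries with bars for the SD over libraries. At E16.5 Tfrc is highest in the cluster with 35.2% globin, at 3435 CPM, and at P3 in the cluster with 55.6%, at 1843 CPM.

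Whether a stage difference itself differed between classes was tested for 32 member and class pairs, by an exact two-sided permutation of the stage labels over the 9 libraries on log2(CPM + 1). The p was the smaller one-sided share doubled, whose smallest possible value is 0.0159, and 12 pairs reached it (Benjamini-Hochberg adjusted p = 0.0423 each). With splits counted by the absolute difference, the smallest p of this permutation test was 0.00794 and 12 pairs were called. The stage difference of Slc40a1 was lower in hepatocytes than in macrophages by 1.16 and than in endothelial cells by 1.41 on the log2 scale, and that of Fth1 was higher in hepatocytes than in these classes, by 1.12 and 1.22. The Tfrc difference was less negative in erythroid cells than in macrophages, hepatocytes and endothelial cells, by 3.40, 2.57 and 2.00. For Trf the erythroid difference was the lower one, by 3.19 against macrophages, 2.24 against hepatocytes and 2.69 against endothelial cells, and the hepatocyte difference was below the macrophage one by 0.95. The Slc11a2 difference was -1.39 in macrophages and 0.21 in erythroid cells on this scale, apart by 1.60. As given above, erythroid Trf was close to the hepatocyte ratio to hepatocyte markers, and globin RNA fell beside Tfrc outside erythroid cells. The part of hepatocyte, erythroid or macrophage RNA in these differences was not tested. With globin-rich clusters kept in their class no pair passed after adjustment. Leaving out any 1 library raises the smallest possible doubled p to 0.0286 or 0.0357, at which none passed.

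The second question was whether the Jag1 genotype altered these genes at E16.5, with Jag1Ndr/Ndr (n = 2) against the libraries without the homozygous label (n = 3). In edgeR's quasi-likelihood test 0 of 82 member and class pairs passed at an adjusted p under 0.05, and 4 had an unadjusted p under 0.05. Over all 106021 gene and class pairs 0 passed (0%), with 1896 below 0.05 before adjustment and 14 called by DESeq2. Among pairs with a mean of at least 20 CPM, the groups did not overlap in 4 of 57 member pairs (7.02%) and in 9.09% of all pairs. In whole libraries 0 of 16152 genes passed (0%), with 171 at an unadjusted p under 0.05 and 4 calls by DESeq2. In the class where each member was highest, the 95% intervals of the log2 fold change, not adjusted for the number of genes, lay within -0.56 to 0.66 for the 9 members other than Hamp. These intervals are normal approximations and are narrower than intervals that allow for the small number of libraries. They were -0.52 to 0.62 for Tfrc in erythroid cells, -0.29 to 0.30 for Trf and -0.56 to 0.66 for Hfe2 in hepatocytes, and -0.29 to 0.37 for Slc40a1 in macrophages.

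Hamp was the member with the largest fold between genotypes in hepatocytes. The Jag1Ndr/Ndr libraries held 170.1 and 51.6 CPM and the others 30.2, 13.8 and 43.0, so the groups did not overlap. The log2 fold change was 1.95 (SE 0.508, unadjusted 95% interval 0.96 to 2.95, edgeR adjusted p = 1). Leaving out Jag1Ndr/Ndr replicate 1 gave 0.96, and leaving out replicate 2 gave 2.56 (edgeR adjusted p = 0.149). With no filter on low counts Hamp in hepatocytes passed (log2 1.96, edgeR adjusted p = 3.4e-16), among 451 calls over all pairs. The other members with an unadjusted edgeR p under 0.05 were Hamp in erythroid cells (log2 2.11, means 2.03 and 0.744 CPM), Hamp in B cells (log2 1.49) and Tfrc in mesenchymal cells (log2 -0.64), each with an edgeR adjusted p of 1. In whole libraries Hamp had a log2 fold change of 1.85 (edgeR adjusted p = 1).

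At P3 library C and library D are 1 library each, so their values have no replicate check, and intervals are exact 95% Poisson intervals for counting error. Hamp in hepatocytes was 936 CPM in C (846 to 1034, 50 cells) and 1855 in D (1747 to 1968, 90 cells). Tfr2 in hepatocytes was 243 CPM in C (198 to 295) and 216 in D (180.1 to 257), which overlap. Slc40a1 in macrophages was 2032 CPM in C (1966 to 2099) and 2856 in D (2770 to 2943), and Ftl1 there was 12008 in C and 9459 in D. Tfrc in erythroid cells was 352 CPM in C (346 to 359) and 623 in D (614 to 632). The libraries of unclear genotype, A and B, held 202 and 474 CPM of erythroid Tfrc, so the 4 pups spread over 202 to 623 CPM.

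The wider iron pathway was read from 4 lists. Of the 21 genes that control hepcidin (BMP and SMAD signalling, Stat3, Tmprss6 and others), 18 passed the filter in some class, and 11 of 112 pairs were higher and 39 lower at P3 (median log2 fold change -0.26). Socs3, an inhibitor of STAT signalling, fell in hepatocytes from 58.0 ± 7.46 to 4.68 ± 4.22 CPM (log2 -3.95, edgeR adjusted p = 4.9e-06). Of 14 other uptake and heme-scavenging genes 13 were tested, with 24 of 79 pairs higher and 25 lower. Hp, the plasma protein haptoglobin that binds free hemoglobin, rose in hepatocytes from 148 ± 65.3 to 4890 ± 1388 CPM (log2 5.30, edgeR adjusted p = 1.1e-07), and Cd163, the macrophage receptor for that complex, rose in macrophages from 47.1 ± 17.8 to 148 ± 77.4 CPM (log2 1.56, edgeR adjusted p = 0.00285), with overlap between the stages. Hpx, the plasma protein that binds free heme, was higher in endothelial cells (7.30 ± 2.22 to 52.8 ± 36.3 CPM, log2 2.47), beside hepatocyte means of 791 and 3578 CPM, and the part of hepatocyte RNA was not tested. Slc39a8, a zinc and iron importer, fell in macrophages from a mean of 41.4 to 10.7 CPM (log2 -2.15, SE 0.224).

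Of 10 genes of export, iron sensing and ferritin turnover 9 were tested, with 3 of 64 pairs higher and 40 lower (median -0.62). Cp, the plasma ferroxidase ceruloplasmin, rose in hepatocytes from 395 ± 53.0 to 934 ± 259 CPM (log2 1.48). Ncoa4, the receptor that delivers ferritin to lysosomes, fell in monocytes (log2 -1.92). The median globin share of monocytes went from 12.4% to 4.36%, and the part of erythroid RNA in the fall of Ncoa4 was not tested. All 11 mitochondrial iron and iron-sulfur cluster genes were tested, with 10 of 88 pairs higher and 51 lower (median -0.67). Slc25a37, the mitochondrial iron importer of erythroid cells, fell in macrophages from 955 ± 234 to 32.0 ± 9.15 CPM (log2 -5.05), as did Abcb10, its partner in the inner membrane, from 151 ± 53.1 to 8.58 ± 4.05 (log2 -4.24). Both are known for their roles in erythroid cells. The globin share of macrophages also fell, as given above, and its part in these falls was not tested. The same holds for neutrophils, whose median globin share went from 15.5% to 1.05%. Glrx5 and Isca1, which act in iron-sulfur cluster assembly, fell in neutrophils, from 352 ± 57.9 to 45.3 ± 12.6 CPM (log2 -3.11) and from 34.1 ± 4.55 to 8.60 ± 2.56 CPM (log2 -2.06). Slc25a28, the second mitochondrial iron importer, rose in endothelial cells from 15.1 ± 2.84 to 53.8 ± 4.41 CPM (log2 1.47). The shares over all genes were 22.8% higher and 23.1% lower, and in the genotype comparison no pair of these 4 lists passed.

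Across the means of the 10 classes at E16.5, the genes most like each member among 8888 compared were found by Pearson correlation, as a description over classes that share libraries. For Hamp and Hfe2 these were hepatocyte genes, Slc25a47 (r = 0.999) and Rtp3 (r = 0.999), and for Trf Atp7b (r = 0.980). Tfr2 was most like Gss (r = 0.967), Mettl7a1 (r = 0.953) and Hnf4a (r = 0.946). Slc40a1 was most like Il18bp, Abcc3 (r = 0.948) and Cd5l, and Hfe most like Sdc3 (r = 0.975). Tfrc was nearest to Pkhd1l1 (r = 0.982), Slc38a5 and Rhag, all highest in erythroid cells, and Slc11a2 to Abcb4 (r = 0.921). Fth1 was nearest to Zdhhc14 (r = 0.957), and Ftl1 to its copy Ftl1-ps1 (r = 0.987) and the lysosomal protease Ctsb (r = 0.982).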

How the data were processed

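Single-cell RNA-seq matrices of mouse liver were analysed as deposited. The authors deposited raw UMI counts per gene and barcode in 10x matrices. The submitters' processing notes name mm10, Cell Ranger 2.1.1, R 4.1.2 and Seurat, and the matrix headers, per the file headers, name software version 3.1.0 at E16.5 and 3.0.2 at P3. The aligner settings and the counting of multimapped reads are not given in the sources used here.

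Barcodes were kept if they held 1000 UMIs or more with no more than 15% on mitochondrial genes. In every library the 10% of barcodes with the highest Scrublet scores were removed as doublets, with clusters made mostly of them. Cells were clustered per stage in scanpy 1.11.5 (2000 variable genes, 30 principal components, 15 neighbours, Leiden resolution 1), without the members and the other iron genes, and named from marker lists. UMIs were summed per library and class. edgeR 4.0.16 in R 4.3.3 (TMM, filterByExpr, quasi-likelihood test, Benjamini-Hochberg over all class and gene pairs) compared Jag1Ndr/Ndr with the other E16.5 libraries over the E16.5 gene list, and P3 with E16.5 over the 22519 genes in both lists. The alternatives were DESeq2 1.42.0, upper-quartile normalization, no filter, other doublet, UMI, globin and clustering settings, and leaving out libraries. The edgeR script was tested on simulated counts. Permutation p-values doubled the smaller one-sided share.

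The members and lists were chosen with earlier results of these data known. All 10 members are named. From the other iron genes, in 4 lists, up to 12 per comparison are named: those past the threshold in any class where their mean is at least 20 CPM, by the largest absolute log2 fold change. Sequences come from RefSeq promoters (GRCm38.p6) and the GRCm38 annotation. Matrices that mix or repeat libraries were reduced to 9 libraries by their barcodes.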

Additional observations from a re-analysis of the deposited data

Results flagged for a closer look

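In 4 cases 1 library stood apart from the others of its group, by the gap to its nearest neighbour relative to the range, a criterion that chance meets in about 1 in 20 groups. Hamp in E16.5 hepatocytes was 170.1 CPM in Jag1Ndr/Ndr replicate 1, the next highest library being at 51.6 CPM. Hamp in P3 hepatocytes was 1855 CPM in library D, the next highest being at 1021 CPM. Ftl1 in E16.5 macrophages was 6151 CPM in the shared library, the next lowest being at 7952 CPM. Hfe2 summed over whole E16.5 libraries was 2.19 CPM in the shared library, the next highest being at 1.09 CPM. That library also held the most hepatocytes at E16.5, 220 cells against 88 to 139, and the part of this in the Hfe2 level was not tested.

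In 12 cases the stage difference of a gene (log2, P3 minus E16.5) differed between 2 cell classes, each at the smallest permutation p of 0.0159 and an adjusted p of 0.0423 in the exact two-sided test. Hepatocytes minus macrophages gave -0.95 for Trf, -1.16 for Slc40a1 and 1.12 for Fth1. Hepatocytes minus erythroid cells gave -2.57 for Tfrc and 2.24 for Trf, and hepatocytes minus endothelial cells -1.41 for Slc40a1 and 1.22 for Fth1. Macrophages minus erythroid cells gave -3.40 for Tfrc, 3.19 for Trf and -1.60 for Slc11a2. Erythroid minus endothelial cells gave 2.00 for Tfrc and -2.69 for Trf. The part of hepatocyte RNA in erythroid Trf, and of erythroid RNA in Tfrc and Slc11a2 of other classes, was not tested. Nor was the part of macrophage RNA in endothelial Slc40a1.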

How the results depend on the processing

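The member and class pairs called between stages, 13 higher and 33 lower, were 9 to 19 higher and 28 to 37 lower in the alternatives run. In the genotype comparison 2 member and class pairs were called with no filter on low counts. Leaving out 1 library without the homozygous label gave 0. Over all genes in cell classes edgeR called 0 pairs between genotypes (1896 at an unadjusted p under 0.05), DESeq2 14, edgeR without the filter 451, and leaving out 1 library 0 to 78. In whole libraries edgeR called 0 (171 unadjusted), DESeq2 4 and edgeR without the filter 2. The 12 differences of stage effects became 0 with globin-rich clusters kept (an alternative chosen after seeing the data). They also became 0 with each library left out in turn, where the smallest possible doubled p is 0.0286 or 0.0357. The other alternatives gave 9 of 17 (Leiden resolution 0.5) to 17 of 35 (globin genes removed).

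Among single genes, 16 genotype values changed sign, all with an edgeR adjusted p of 1. Without Jag1Ndr/+ replicate 1 they were -0.11 for erythroid Tfrc, -0.01 and -0.05 for macrophage Slc40a1 and Slc11a2, and -0.15 for hepatocyte Hfe2. Without the shared library they were 0.02 for hepatocyte Tfr2 and -0.01 and -0.11 for macrophage Fth1 and Ftl1. Without Jag1Ndr/Ndr replicate 2 they were 0.08 for hepatocyte Tfr2 and -0.12 for macrophage Slc11a2, and without replicate 1 -0.10 and -0.04 for macrophage Hfe and Ftl1. Without Jag1+/+ replicate 1 hepatocyte Hfe2 was -0.08. With globin-rich clusters kept they were -0.04, -0.11 and -0.01 for macrophage Slc40a1, Slc11a2 and Hfe and -0.11 for hepatocyte Hfe2. Over all left-out libraries the genotype values ranged up to 0.18 for erythroid Tfrc, down to -0.24 for hepatocyte Tfr2, and up to 0.19, 0.28, 0.27 and 0.22 for macrophage Slc11a2, Hfe, Fth1 and Ftl1 and 0.49 for hepatocyte Hfe2. The 6 stage values that changed sign were hepatocyte Trf at 0.06 (globin-rich clusters kept) and 0.01 (without library B, where leaving out library A gave -0.13), macrophage Slc40a1 at -0.16 (doublets kept), -0.04 (automatic doublet threshold) and -0.01 (libraries A and B left out), and hepatocyte Hfe2 at -0.29 (libraries A and B left out). The cause was not tested.

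Whether replicate numbers pair the E16.5 libraries was not settled. Correlations of same-numbered deviations were 0.43, 0.23 and -0.04. With 2 homozygous libraries the different-numbered values are their exact opposites (-0.43, -0.23 and 0.04), so they give no separate reference. With the number as a block the Hamp genotype difference in hepatocytes was 2.11 (edgeR adjusted p = 0.252), and 0 members were called between genotypes. Between stages 13 member and class pairs were then higher and 31 lower, and 5 members in place of 4 were lower in whole libraries. A minimum of 2000 UMIs removed no barcode at E16.5. Hepatocyte values rest on 50 to 276 cells per library, and leaving out 1 library of the 2 homozygous ones assumes that the lone library varies like the others.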
